A study of Mus musculus with 6 samples.

Results

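A set of 8 genes of the red blood cell lineage was followed through 6 ATAC-seq peak lists from mouse bone marrow: Hba-a1, Hbb-bt, Alas2, Gata1, Tal1, Gfi1b, Slc4a1 and Ank1. ATAC-seq cuts DNA that is open to a transposase, and each list holds the genome intervals called as open in 1 library. The peaks of the 6 lists were merged wherever they overlapped by at least 1 bp, and each merged region was given to the nearest protein-coding gene within 100 kb. Of 69171 merged regions, 65361 were given to a gene, and 29 of these fell to the 8 genes. Of the 29, 16 lay inside their gene, 3 across a gene end and 10 outside, the farthest 12429 bp away, so none was near the 100 kb limit. The genes were chosen by their calls in these same lists: Hba-a1, Hbb-bt, Gata1 and Alas2 had been seen in plasma cells 1 only, and Gfi1b and Ank1 in both plasma cell lists and neither pc-BMAC list. Their calls are therefore given as a description, with no test.

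The study sorted 3 populations from the bone marrow of naive Balb/c mice carrying the Adig transgene, in which GFP reports activity of Aire, the autoimmune regulator. Plasma cells, the antibody-secreting end stage of the B lineage, were sorted as AireGFP-B220-CD138+TACI+. Cells named pc-BMACs were sorted with the same surface markers but as AireGFP+. Immature B cells were AireGFP-B220+CD138-TACI-IgM+. All 6 libraries therefore come from the reporter strain, and each population has 2 libraries, numbered 1 and 2 here as in the labels. Whether 2 libraries of the same sort share an animal is not in the labels. The markers given for the 3 sorts include no erythroid marker, and 2000 to 15000 sorted cells went into a library. Between 34070 and 51643 peaks were deposited per list, with 37821 for plasma cells 1 and 36723 for plasma cells 2. The lists hold positions only, with the value 1000 in the score column of every row, so sequencing depth is unknown and a region that a list leaves out is not shown to be closed there. Lists for 2 libraries against 2 allow no two-sided exact p below 0.333, and 1 plasma cell list against the other has no replicate, so no p is given.

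Red cell precursors turn on a small set of genes in concert. The transcription factors Gata1 and Tal1 bind together at many erythroid genes, Gfi1b represses other programmes beside them, Alas2 makes the first precursor of heme in red cells, and the alpha and beta globins carry the heme. Band 3 (Slc4a1), an anion exchanger, and ankyrin 1 (Ank1), which ties it to the spectrin skeleton, build the red cell membrane. GATA sites, CACCC boxes bound by the erythroid factor Klf1, and E boxes bound by Tal1 dimers are the sequence elements best known from promoters and enhancers of these genes.

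The promoters below are shown because a called peak lies over each of them. Each is the run of 250 bases before the start site, read 5′ to 3′ in the direction of transcription, from RefSeq (GRCm38.p6). Capitals mark matches to AGATAA or TGATAA, or to CCNCNCCC, on either strand. Hbb-bt (chr7:103813924-103814173, minus strand) and Epor (chr9:21963577-21963826, minus strand), the erythropoietin receptor, were called in plasma cells 1 and no other list. Hbb-bs (chr7:103827929-103828178, minus strand), the other adult beta globin, was called in both plasma cell lists and in pc-BMACs 2. Gfi1b (chr2:28621983-28622232, minus strand) was called in all 6 lists.
Hbb-bt: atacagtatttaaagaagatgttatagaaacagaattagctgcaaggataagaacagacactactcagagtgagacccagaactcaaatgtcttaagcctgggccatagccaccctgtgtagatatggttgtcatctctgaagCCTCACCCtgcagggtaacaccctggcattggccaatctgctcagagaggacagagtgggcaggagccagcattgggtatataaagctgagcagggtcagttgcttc
Hbb-bs: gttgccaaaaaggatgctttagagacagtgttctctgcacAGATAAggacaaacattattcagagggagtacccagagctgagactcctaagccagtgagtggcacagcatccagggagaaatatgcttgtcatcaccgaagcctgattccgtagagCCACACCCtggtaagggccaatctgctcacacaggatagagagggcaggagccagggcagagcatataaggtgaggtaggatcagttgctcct
Epor: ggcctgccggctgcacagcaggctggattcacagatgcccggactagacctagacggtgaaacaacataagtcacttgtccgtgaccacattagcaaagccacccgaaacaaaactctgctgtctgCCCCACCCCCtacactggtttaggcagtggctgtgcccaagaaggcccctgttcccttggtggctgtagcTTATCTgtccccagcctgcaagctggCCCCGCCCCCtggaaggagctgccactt
Gfi1b: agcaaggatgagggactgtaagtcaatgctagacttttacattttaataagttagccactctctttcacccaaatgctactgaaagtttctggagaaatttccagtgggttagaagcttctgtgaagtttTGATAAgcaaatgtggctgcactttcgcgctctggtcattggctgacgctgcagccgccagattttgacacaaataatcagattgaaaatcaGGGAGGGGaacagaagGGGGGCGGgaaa
The Hbb-bt window held 1 CACCC match, at base 144, and no GATA match. The Hbb-bs window held a CACCC match at base 158 and a GATA match at base 41. Aligned end to end, these 2 windows had 178 identical bases of 243 aligned, with 14 gap columns. The plasma cells 1 peak covered bases 112 to 250 of the Hbb-bt window and bases 3 to 250 of the Hbb-bs window. At Hbb-bs the narrower peak of plasma cells 2 covered bases 55 to 241, and that of pc-BMACs 2 covered bases 86 to 235, so both left out the GATA match. The Epor peak, from base 40 to base 189, held the 2 overlapping CACCC matches at bases 127 and 129 and stopped short of the GATA match at base 197. The Gfi1b window held a GATA match at base 131 and CACCC matches at bases 223 and 239, and a peak of every list covered them. Over 32817 such windows of the genome, 16.6% held a GATA match, 45.9% a CACCC match and 66.2% an E box (CANNTG), so none of these matches is rare. The windows of Hba-a1, Gata1 and Alas2 and both windows of Tal1 were called in no list. Slc4a1 and Ank1 have no entry in the promoter table.

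Plasma cells 1 called 23 of the 29 regions and plasma cells 2 called 14. Immature B cells 1 and 2 called 9 and 7, and pc-BMACs 1 and 2 called 9 and 10. Of all 65361 assigned regions, plasma cells 1 and 2 called 34483 and 33556. Immature B cells 1 and 2 called 48258 and 42399 of them, and pc-BMACs 1 and 2 called 36771 and 31894. Between the 2 plasma cell lists, 13 of the 29 regions were called in both (45.2% of all assigned regions) and 5 in neither (41.1%). Another 10 were called in plasma cells 1 alone (7.54%) and 1 in plasma cells 2 alone (6.12%). Of the 10 in plasma cells 1 alone, 9 were called in no other list at all (9 of 29, against 2.13% of all assigned regions). Of the 29, 0 were called in plasma cells 2 and no other list (1.06%). These shares stand beside the counts for scale only, since the choice of genes used these calls. The 9 regions were those of Hba-a1, Hbb-bt, Gata1 and Alas2, 3 regions of Ank1 and 2 of Gfi1b. The calls rest on narrow peaks: with each list cut to its 17035 widest peaks, 5 of the 29 regions remained and 1 of them was called in plasma cells 1 alone. With 34070 peaks kept in each list, the length of the shortest, 20 regions remained. Plasma cells 1 alone of the plasma cell lists then called 7, and plasma cells 2 alone called 2.

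**Figure D1:**
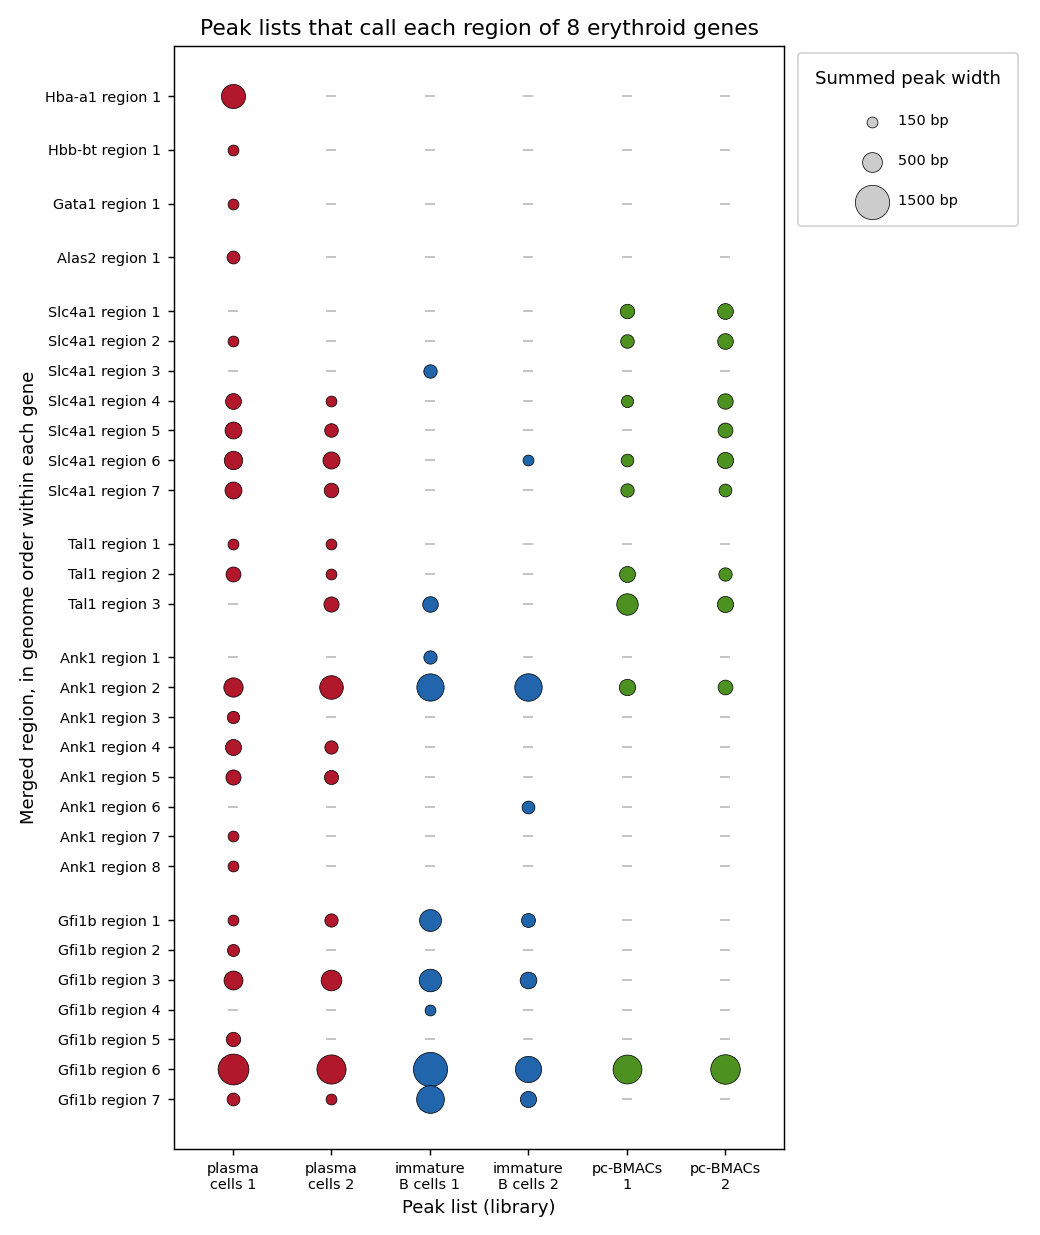
Calls at the 29 regions of the 8 genes (rows) in the 6 peak lists (columns). A circle is a call, with its area in proportion to the summed width of that list's peaks in the region, and a dash is no call. Hba-a1, Hbb-bt, Gata1 and Alas2 have 1 region each, called in plasma cells 1 only, while Slc4a1, Tal1, Ank1 and Gfi1b have 3 to 8 regions shared among the lists.

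Each globin member had 1 region, called in plasma cells 1 and no other list. The Hba-a1 region (chr11:32285026-32285769) was 744 bp wide and lay 540 bp past the end of this adult alpha globin gene, which spans 32283672 to 32284486. It was the widest member peak of plasma cells 1 and wider than 73.4% of all peaks of that list. The next protein-coding gene, Hbq1b, a theta-like globin, began 1195 bp further on. The Hbb-bt region (chr7:103813913-103814062) lay across the start site of this adult beta globin, with its centre 64 bp before it. At 150 bp it had the smallest width that any list holds. Adult globins exist as near-identical copies, and how reads that map to more than 1 copy were handled is not given in the sources used here. Hba-a2, the other adult alpha globin, had no region in any list. The coordinates are those of the C57BL/6J reference, whereas Balb/c mice carry another beta globin haplotype.

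Alas2, the erythroid form of the enzyme that starts heme synthesis, had a single region (chrX:150549738-150549950) inside the gene. Its peak in plasma cells 1 was 213 bp wide and was centred 2427 bp after the start site, and the other 5 lists called nothing there. The region also lies within the interval of Apex2, a DNA repair gene, so it is not unique to Alas2.

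The 3 transcription factors differed from each other. Gata1 had 1 region (chrX:7971413-7971562), a 150 bp peak of plasma cells 1 alone, inside the gene interval and 3578 bp before the start site in the promoter table. Tal1, the basic helix-loop-helix partner of Gata1, had 3 regions, all inside the gene. The first (chr4:115056638-115056863) was called at 150 bp in plasma cells 1 and at 150 bp in plasma cells 2, and in no other list. It lay 324 bp after a Tal1 start site, and the peaks of the 2 libraries overlapped only in part. The second (chr4:115057129-115057476) was 286 bp wide in plasma cells 1, 150 bp in plasma cells 2, and 326 and 227 bp in pc-BMACs 1 and 2. The third (chr4:115063009-115063595) was the only one of the 29 regions called in plasma cells 2 and not in plasma cells 1: it was 294 bp in plasma cells 2, 311 bp in immature B cells 1, and 587 and 336 bp in pc-BMACs 1 and 2. Tal1 thus did not share the pattern of Gata1, since plasma cells 2 called all 3 of its regions and plasma cells 1 called 2.

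Gfi1b, a zinc finger repressor of the erythroid and megakaryocyte lineages, had 7 regions, 6 of them called in plasma cells 1 and 4 in plasma cells 2. The region across its start site (chr2:28621582-28623196) was called in all 6 lists, as were 30.6% of all assigned regions. There plasma cells 1 had a pair of peaks of 490 and 723 bp, plasma cells 2 of 466 and 621 bp, pc-BMACs 1 of 485 and 578 bp, pc-BMACs 2 of 466 and 648 bp, and immature B cells 2 of 431 and 448 bp. Immature B cells 1 had a single peak of 1491 bp. Another 3 regions were called in both plasma cell lists and both immature B cell lists but in neither pc-BMAC list. The first of these (chr2:28605700-28606372), 3078 bp past the gene, had peaks of 458 and 548 bp in plasma cells 1 and 2 and of 651 and 356 bp in immature B cells 1 and 2. Another (chr2:28629475-28630457), 7493 bp before the gene, was 210 and 150 bp in plasma cells and 983 and 334 bp in immature B cells. At the other (chr2:28599244-28599855), the 150 bp peak of plasma cells 1 and the 225 bp peak of plasma cells 2 did not overlap each other and were joined by the 612 bp peak of immature B cells 1. Plasma cells 1 alone called a 187 bp peak 7003 bp past the gene (chr2:28602261-28602447) and a 266 bp peak inside it (chr2:28616903-28617168). Immature B cells 1 alone called a 150 bp peak inside the gene (chr2:28616475-28616624).

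Slc4a1 was called in the pc-BMAC lists as well as in the plasma cell lists. Of its 7 regions, plasma cells 1 called 5, plasma cells 2 called 4, pc-BMACs 1 and 2 called 5 and 6, and each immature B cell list called 1. Inside the gene (chr11:102363653-102363996), peaks were 322 bp in plasma cells 1, 150 bp in plasma cells 2, and 189 and 303 bp in pc-BMACs 1 and 2. The region across a gene end (chr11:102365085-102365465) was 366, 236 and 282 bp wide in plasma cells 1, plasma cells 2 and pc-BMACs 2. A pair of regions lay about 10 kb outside the gene. The nearer (chr11:102375197-102375632) was 436 and 372 bp in plasma cells 1 and 2, 204 and 336 bp in pc-BMACs 1 and 2, and 150 bp in immature B cells 2. The farther (chr11:102375776-102376143) was 368 and 272 bp in plasma cells and 228 and 208 bp in pc-BMACs. At all 4 of these regions the peak of plasma cells 1 was wider than that of plasma cells 2.

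On the other side of Slc4a1, 9287 bp outside it, plasma cells 1 called a 150 bp peak (chr11:102339221-102339533) that plasma cells 2 lacked, where pc-BMACs 1 and 2 had 235 and 313 bp. Beside it (chr11:102338693-102339011) the pc-BMAC lists alone had peaks of 267 and 319 bp. Immature B cells 1 alone called a 230 bp region inside the gene (chr11:102351505-102351734). Slc4a1 therefore contributed none of the 9 regions that plasma cells 1 alone of the 6 lists called.

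Ank1, the longest of the 8 genes, had 8 regions, of which plasma cells 1 called 6 and plasma cells 2 called 3. A single region (chr8:23027933-23028909) was called in all 6 lists, at 477 and 713 bp in plasma cells 1 and 2, 953 and 964 bp in immature B cells 1 and 2, and 341 and 279 bp in pc-BMACs 1 and 2. A pair was called in both plasma cell lists and no other list (1.51% of all assigned regions). The first of this pair (chr8:23034950-23035279) was 330 bp in plasma cells 1 and 227 bp in plasma cells 2, and the other (chr8:23054021-23054352) was 293 and 255 bp. Another 3 were called in plasma cells 1 alone of the 6 lists: 195 bp at chr8:23031450-23031644, 150 bp at chr8:23144458-23144607 and 150 bp at chr8:23149655-23149804. The second of these lay 1776 bp from Mir486, a microRNA gene inside Ank1 that is abundant in red cells. The other 2 regions were called in 1 immature B cell list each, at 226 and 209 bp, and were narrow peaks with no counterpart in the other immature B cell library.

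Across the 8 genes, 6 regions were called in both plasma cell lists and in neither pc-BMAC list (1 of Tal1, 2 of Ank1 and 3 of Gfi1b), against 6.62% of all assigned regions. Another 7 were called in both plasma cell lists and in neither immature B cell list (3 of Slc4a1, 2 of Tal1 and 2 of Ank1), against 5.79%. The first of these counts was also known when Gfi1b and Ank1 were chosen. The 3 shared by the plasma cell libraries and no other list were the first Tal1 region and the Ank1 pair above. A further 5 were called in both pc-BMAC lists and in neither immature B cell list, against 9.99% of all assigned regions: 4 of Slc4a1 and 1 of Tal1. No member region of Ank1 or Gfi1b was called in a pc-BMAC list other than the region of each that all 6 lists called. Of the 29 regions, 13 were called in a single list. Plasma cells 1 called 9 of these, where 2.13% of all assigned regions were called in that list alone. Immature B cells 1 called 3 (9.69%) and immature B cells 2 called 1 (3.06%).

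The replicate lists of the other populations were set side by side in the same way. Of the 24 member regions called in either plasma cell list, 13 were in both (76.8% of all assigned regions called in either). Of the 10 called in either pc-BMAC list, 9 were in both (76.9%). There were 0 in pc-BMACs 1 alone (10.6% of all assigned regions) and 1 in pc-BMACs 2 alone (3.12% of all assigned regions). Among all assigned regions called in either pc-BMAC list, these shares were 17.8% and 5.25%. Of the 11 called in either immature B cell list, 5 were in both (77.5%). There were 4 in immature B cells 1 alone (13.3% of all assigned regions) and 2 in immature B cells 2 alone (4.3% of all assigned regions). Among all assigned regions called in either immature B cell list, these shares were 17% and 5.5%. Plasma cells 1 was the only list to call 9 of its 23 regions (4.05% of all its assigned regions). Plasma cells 2 was the only list at 0 of its 14 (2.07%). As shares of all assigned regions, those called in that list alone were 2.13% and 1.06%. On that base, immature B cells 1 alone called 3 member regions (9.69%) and immature B cells 2 alone called 1 (3.06%). Neither pc-BMAC list called a member region by itself (4.6% for pc-BMACs 1 and 1.33% for pc-BMACs 2). Both pc-BMAC lists and neither plasma cell list called 1 member region, of Slc4a1 (6.24%), both immature B cell lists and neither plasma cell list called 0 (16.4%), and both immature B cell lists and neither pc-BMAC list called 3, all of Gfi1b (21.9%). The regions called by single immature B cell lists were 150 to 230 bp wide, and the 9 called in plasma cells 1 and no other list had a median of 187 bp.

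Peak width is the only other measure in the lists, and it was not used to choose the genes. The 24 peaks of plasma cells 1 at the 29 regions had a median width of 276 bp, against 404 bp over the whole list, and 7 of them were at 150 bp. The 15 peaks of plasma cells 2 had a median of 255 bp against 414 bp, with 4 at 150 bp. The 9 member peaks that plasma cells 1 alone of the 6 lists called had a median of 187 bp, and 4 were at 150 bp. Genome-wide, peaks called in plasma cells 1 and no other list had a median of 195 bp, and 35.04% were at 150 bp, while peaks of the same library in regions called in both plasma cell lists had a median of 470 bp. Member peaks called in plasma cells 1 alone were therefore about as narrow as other peaks of that kind, and Hba-a1 at 744 bp was the exception. Where both plasma cell lists called a member region, the summed peak width was larger in plasma cells 1 at 9 of 13 regions, larger in plasma cells 2 at 3 and equal at 1. Over all regions called in both lists it was larger in plasma cells 1 at 49.9%.

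**Figure D2:**
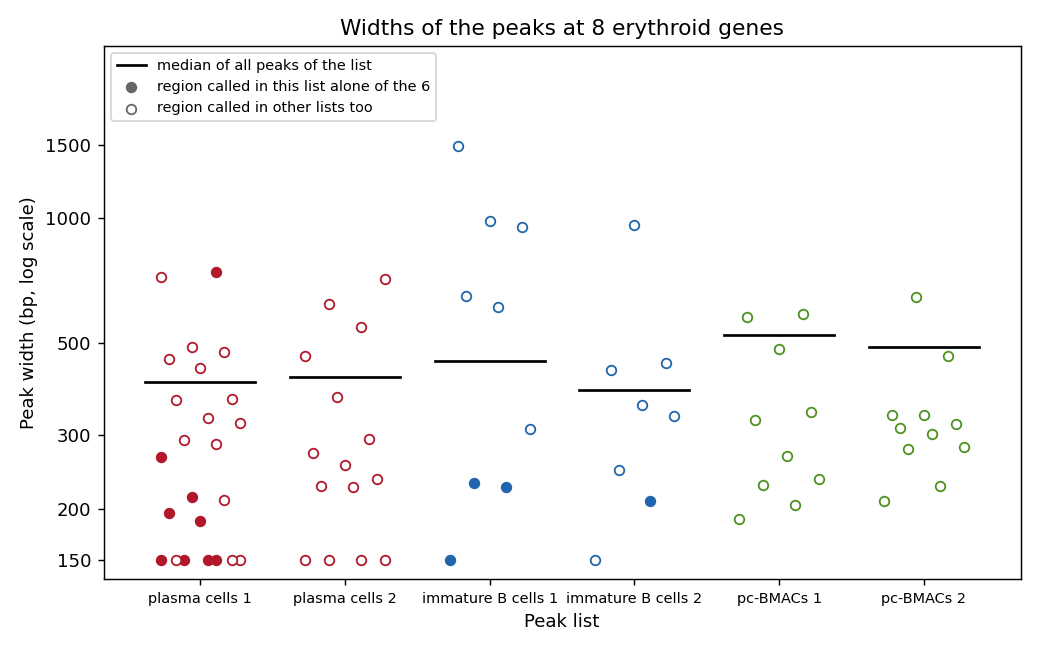
Width in bp (log axis) of each member peak by peak list, with the median width of all peaks of that list as a line. Filled points are peaks in regions that only that list called. In plasma cells 1 the median of the 24 member peaks is 276 bp and that of the list 404 bp, and the Hba-a1 peak stands highest at 744 bp.

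The surroundings of the globin genes held further regions that went to other genes by the nearest-gene rule. Within 100 kb of Hbb-bt there were 6 regions including its own, and plasma cells 1 called all 6. Plasma cells 2 and pc-BMACs 2 called 2 each, and pc-BMACs 1 and both immature B cell lists called none. For scale, plasma cells 1 and 2 called 34483 and 33556 of all 65361 assigned regions. The counts were 36771 and 31894 for pc-BMACs 1 and 2, and 48258 and 42399 for immature B cells 1 and 2. The Hbb-bs promoter region (chr7:103827862-103828176) was 315 bp in plasma cells 1, 187 bp in plasma cells 2 and 150 bp in pc-BMACs 2. Past the end of Hbb-bs, a 219 bp region (chr7:103825973-103826191) was called in plasma cells 1 alone. The other 3 lay between Hbb-y, an embryonic beta globin, and Olfr66, an odorant receptor gene, on the side where the beta globin locus control region, a cluster of strong enhancers, is known to lie. The first (chr7:103860985-103861250) was 263 bp in plasma cells 1 and 150 bp in pc-BMACs 2, the second (chr7:103865812-103866084) was 273 bp in plasma cells 1 and 150 bp in plasma cells 2, and the third (chr7:103870798-103871031) was 234 bp in plasma cells 1 alone. At each of the 3 regions called in more than 1 list, the plasma cells 1 peak was the widest.

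The alpha globin surroundings were called in every population. Within 100 kb of Hba-a1 there were 16 regions, of which plasma cells 1 called 12, plasma cells 2 called 10, pc-BMACs 1 and 2 called 8 and 9, and each immature B cell list called 8. The counts of each list over all assigned regions, given above for the beta globin surroundings, apply here too. Of the 16, 6 were called in all 6 lists, as were 30.6% of all assigned regions. The neighbouring gene Nprl3 is known to hold the main alpha globin enhancers in its introns. Regions given to Nprl3 at chr11:32250884-32251302 and chr11:32256199-32256391 were called in plasma cells 1 alone, 1 at chr11:32244786-32244935 in plasma cells 2 alone and 1 at chr11:32247217-32247417 in pc-BMACs 1 alone. Another at chr11:32245619-32245989 was called in both plasma cell lists and pc-BMACs 2. A region inside Nprl3 (chr11:32238127-32238806) and one across an end of Nprl3 (chr11:32267075-32268123) were called in all 6 lists. A region between Nprl3 and the globin genes (chr11:32271196-32271641) was called in both plasma cell lists and both pc-BMAC lists and in neither immature B cell list. Around all 8 genes together, 85 regions within 100 kb went to other genes. Plasma cells 1 and no other list called 6 of them (2.13% of all assigned regions), plasma cells 2 and no other list called 2 (1.06%), and 40 were called in all 6 lists (30.6%).

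**Figure D3:**
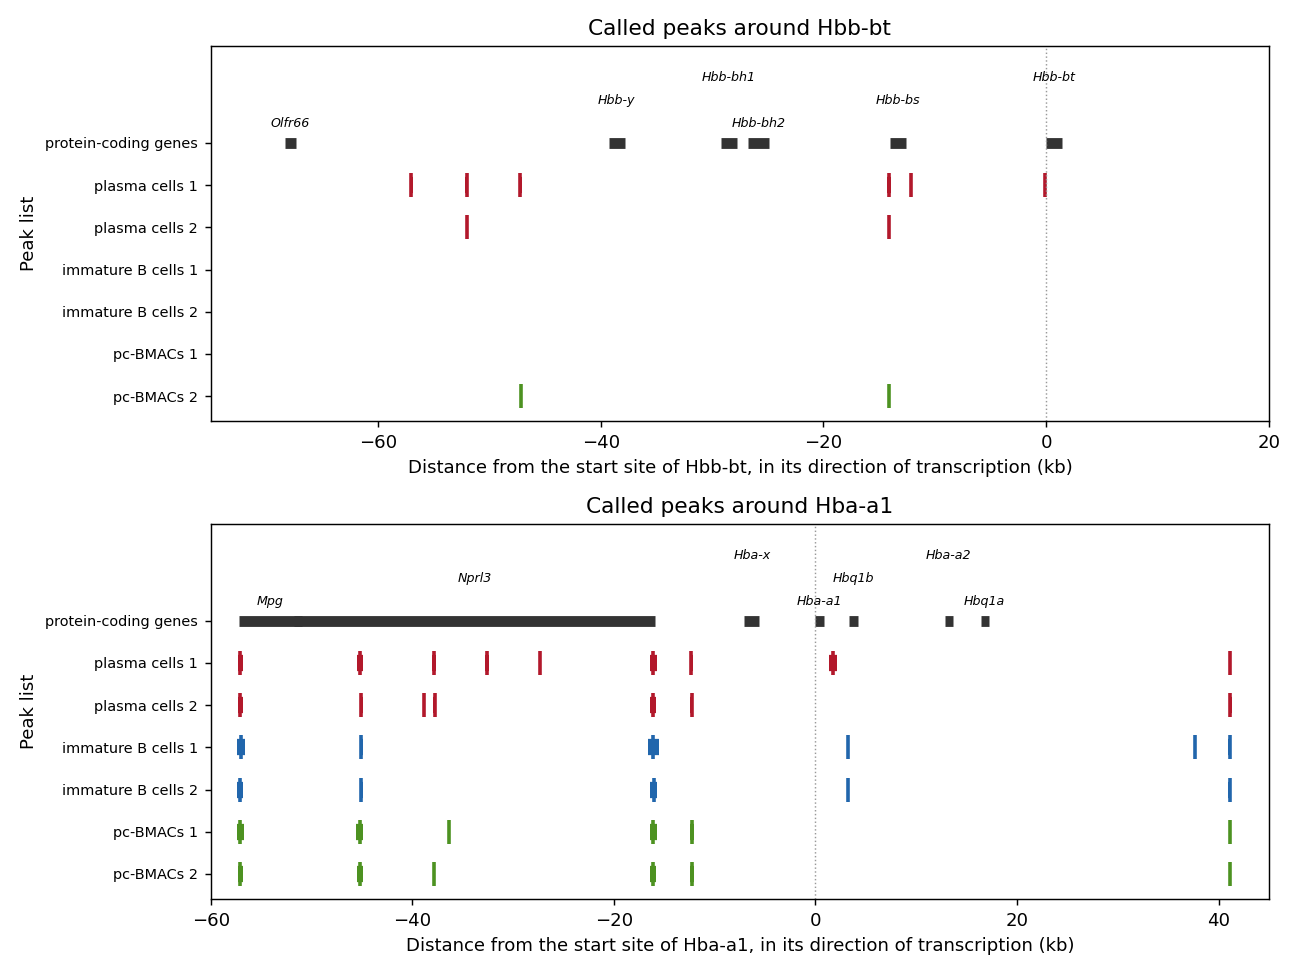
Called peaks of the 6 lists around Hbb-bt (top) and Hba-a1 (bottom), by distance in kb from the start site in the direction of transcription, with protein-coding genes above. Bars show peak extent, with a tick at each centre so that narrow peaks can be seen. Around Hbb-bt all 6 regions carry a plasma cells 1 peak and no immature B cell list has any, while the Hba-a1 surroundings carry peaks of all 6 lists.

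The pattern was then followed in 5 lists of erythroid genes (globins, transcription factors, heme and iron, membrane and skeleton, and receptors, enzymes and maturation) with the 8 genes left out. These lists were drawn up with earlier results of these data known, and so are a description too. Of 96 such genes, 87 had at least 1 region, with 499 regions in all. Of the 312 regions called in either plasma cell list, 72 (23.1%) were called in plasma cells 1 alone and 27 (8.65%) in plasma cells 2 alone. Over all genes these shares were 12.8% and 10.4%. Called in plasma cells 1 and no other list were 41 regions (8.22% of 499, against 2.13% of all assigned regions), and in plasma cells 2 and no other list 4 regions (0.802%, against 1.06%). The 41 regions lay at 32 of the 87 genes, or 36.8%, and 7.86% of all genes with a region had such a region. The 4 regions of plasma cells 2 lay at 4 genes, or 4.6%, against 4.22%. By gene, 40 of the 87 had more regions in plasma cells 1, 6 had more in plasma cells 2 and 41 had equal numbers, and the median difference was 0. Over all genes, 17.9% had more in plasma cells 1 and 14.4% had fewer, with a median difference of 0. With each list cut to its 34070 widest peaks, the length of the shortest list, the counts were 58 in plasma cells 1 alone and 29 in plasma cells 2 alone. The shares of all regions were then 7.56% and 7.57%. With each list cut to its 17035 widest peaks the counts were 13 and 15. The larger count of plasma cells 1 thus remained in lists of equal length but was not seen among the widest peaks.

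Red cell membrane and skeleton genes had the largest share of regions called in plasma cells 1 alone among the 4 erythroid lists with more than 4 such regions to compare: 20 of 66 (30.3%), against 5 (7.58%) in plasma cells 2 alone. Over all genes the shares were 12.8% and 10.4%. In 16 of those 20, no other list called the region, as held for 1395 of 4930 over all genes. The genes included Aqp1, a water channel, with 2 regions, Gypc and Rhd, carriers of blood group antigens, with 2 each, and Sptb, a spectrin chain, with 1. Rhag, Kel, Dmtn, Add2, Mpp1, Slc14a1 and Tspo2 had 1 each as well. Of these, 2 lay over start sites: a 313 bp peak at Aqp1 (chr6:55336169-55336481) and a 150 bp peak at Kel (chr6:41704242-41704391). Cd47, the signal that protects red cells from being engulfed, had the 1 region of this list called in plasma cells 2 and no other list.

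Receptors, enzymes and maturation genes followed, with 23 of 92 regions (25.0%) in plasma cells 1 alone and 4 (4.35%) in plasma cells 2 alone. No other list called 13 of the 23 (1395 of 4930 over all genes), and none of the 4 was confined to plasma cells 2 (693 of 4003). Besides Rhd, which is in both lists, they included the Epor promoter peak of 150 bp shown above, Bnip3l, which marks mitochondria for removal in maturing red cells, Bpgm, which makes the allosteric regulator of hemoglobin, and Xpo7, Ube2o and Trak2. Add3 had 2, and Cited2, Isg20 and Pim1 had 1 each. The 2 Add3 regions lay 10309 and 26682 bp outside the gene, the Isg20 region 20637 bp, the Pim1 region 43130 bp and the Cited2 region 67299 bp, so those 5 assignments rest on distance.

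Erythroid transcription factors had 23 of 110 regions (20.9%) in plasma cells 1 alone and 14 (12.7%) in plasma cells 2 alone. Over all genes the shares were 12.8% and 10.4%. Sox6, which silences embryonic globin, had 4 regions called in plasma cells 1 and no other list, of 19 regions. Zfpm1 (FOG1), the cofactor of Gata1, had 3 of 13, and E2f2, Lmo2 and Myb had 1 each. Myb also had 1 region called in plasma cells 2 and no other list, 66038 bp from the gene. Klf1, the erythroid factor that binds CACCC boxes, had 1 region and all 6 lists called it. Heme and iron genes were nearer to the shares of all genes, with 6 of 43 regions (14.0%) in plasma cells 1 alone and 4 (9.3%) in plasma cells 2 alone. Abcb10, a mitochondrial transporter, Abcg2, a porphyrin exporter, and Hmox1, which breaks heme down, had 1 region each called in plasma cells 1 and no other list, while Uros, an enzyme of heme synthesis, and Fth1, the ferritin heavy chain, had 1 each called in plasma cells 2 and no other list. The globin list without the 2 members had 4 regions in either plasma cell list, 2 in plasma cells 1 alone and 0 in plasma cells 2 alone.

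A further 13 regions of these erythroid genes were called in both plasma cell lists and no other list (2.61%, against 1.51% of all assigned regions). They included regions at Nfe2, Hemgn, Lmo2, Sox6 and Bcl11a among the transcription factors, at Sptb, Tmod1 and Aqp1 among the membrane genes, and at Uros, Trim10, Pim1 and Hbb-y. The Trim10 region (chr17:36869262-36869606), centred 140 bp before the start site, was 330 bp in plasma cells 1 and 199 bp in plasma cells 2. Some lay far from their gene: 86094 bp for Bcl11a, which is also in the B cell list, 63809 bp for Lmo2, 21275 bp for Pim1, 12605 bp for Hbb-y and 10234 bp for Aqp1. Where both lists called a region of these genes, the peak was wider in plasma cells 1 at 115 of 213 regions, or 54%.

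The same erythroid genes were then compared between the replicate lists of the other populations. Of 283 regions called in either pc-BMAC list, 52 (18.4%) were called in pc-BMACs 1 alone and 20 (7.07%) in pc-BMACs 2 alone, where all genes gave 17.8% and 5.25%. Of 352 called in either immature B cell list, 68 (19.3%) were called in immature B cells 1 alone and 10 (2.84%) in immature B cells 2 alone, where all genes gave 17.0% and 5.5%. In those pairs the erythroid genes departed by at most 2.66 percentage points from all genes, and in the plasma cell pair by 10.3 points in plasma cells 1. Counted as a share of all assigned regions of a list, and still without the 8 genes, erythroid regions made up 0.826% in plasma cells 1, 0.715% in plasma cells 2, and between 0.67% and 0.724% in the other 4.

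**Figure D4:**
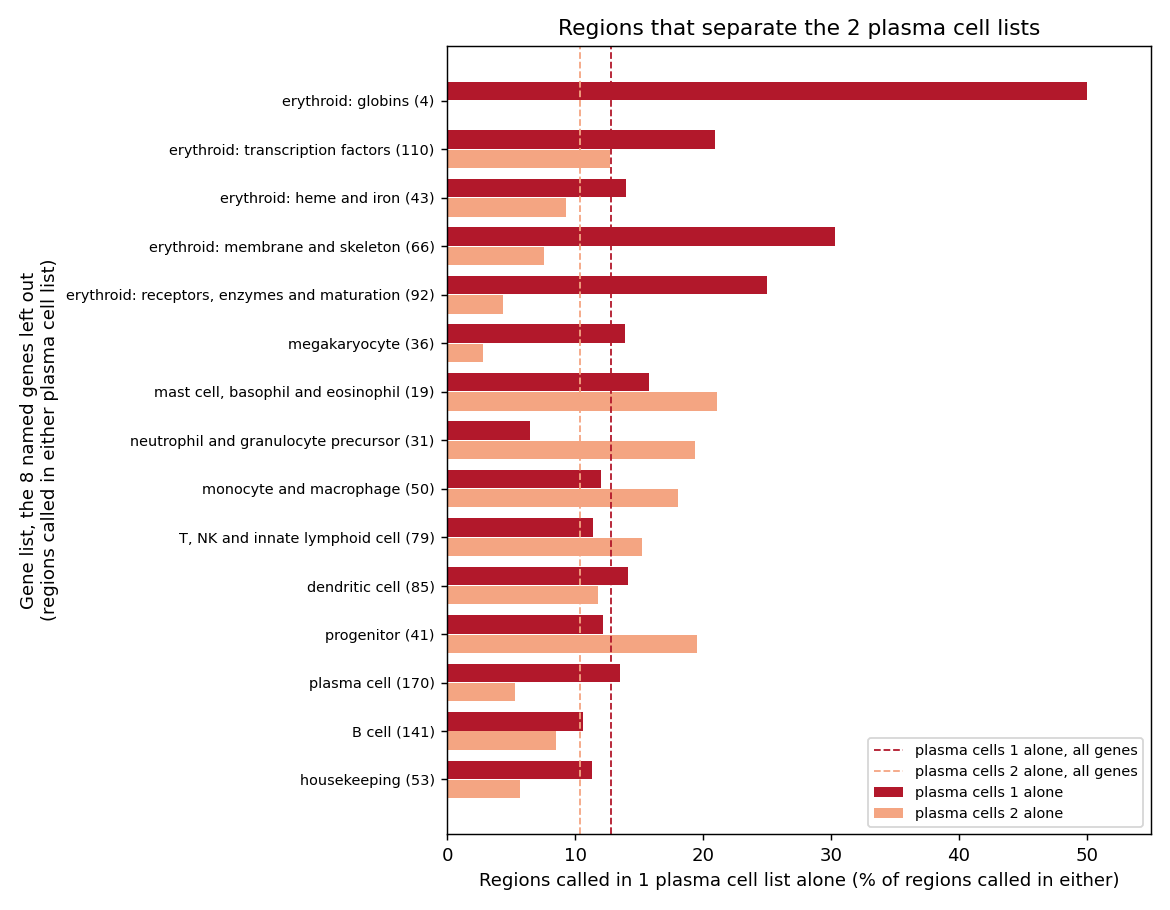
Share of regions called in 1 plasma cell list alone, in percent of the regions called in either (their number is in brackets), for the 5 erythroid lists without the 8 genes and for 10 other lists. Dashed lines give all genes, at 12.8% for plasma cells 1 alone and 10.4% for plasma cells 2 alone. Among erythroid lists, bars for plasma cells 1 are longest at membrane and skeleton genes (30.3%) and at globins, which rest on 4 regions.

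Markers of other cells that bone marrow holds were counted in the same way, and their part in the erythroid calls was not tested. Of the regions called in either plasma cell list, the numbers in plasma cells 1 alone and in plasma cells 2 alone were 5 and 1 of 36 for megakaryocytes, 3 and 4 of 19 for mast cells, basophils and eosinophils, 2 and 6 of 31 for neutrophils and 6 and 9 of 50 for monocytes and macrophages. The innate lymphoid, NK and T cell list had 9 and 12 of 79. They were 12 and 10 of 85 for dendritic cells and 5 and 8 of 41 for progenitors. For genes of the sorted cells themselves they were 23 and 9 of 170 for plasma cell genes and 15 and 12 of 141 for B cell genes, and for housekeeping genes 6 and 3 of 53. Shares in plasma cells 1 alone ran from 6.45% (neutrophils) to 15.8% (mast cells, basophils and eosinophils), where all genes gave 12.8%. Those in plasma cells 2 alone ran from 2.78% (megakaryocytes) to 21.1% (mast cells, basophils and eosinophils), against 10.4%. Megakaryocyte and plasma cell genes had 13.9% and 13.5% in plasma cells 1 alone. Single genes went to either side. F13a1, a macrophage and megakaryocyte gene, had 4 regions in plasma cells 2 and 0 in plasma cells 1, and 3 of these 4 were in no other list. S100a9, a neutrophil calprotectin subunit, had 3 regions in plasma cells 2 and 1 in plasma cells 1. Tcf7, a T cell factor, had 5 regions in plasma cells 1 alone of the plasma cell lists and 3 in plasma cells 2 alone. It had 4 in plasma cells 1 and no other list and 0 in plasma cells 2 and no other list. Cd28 and Rora, of the same list, went the other way, with 0 and 1 in plasma cells 1 alone and 3 and 2 in plasma cells 2 alone. Fli1, a megakaryocyte factor, had 2 regions in plasma cells 1 alone and 0 in plasma cells 2 alone. Gata2, which precedes Gata1 in blood progenitors and stays on in mast cells, had 4 regions, called 0 times in plasma cells 1 and 1 time in plasma cells 2.

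Genes called like Hba-a1, Hbb-bt, Gata1 and Alas2, with every region in plasma cells 1 and no other list, were 65 of the 15183 genes with a region (0.428%). The same pattern in plasma cells 2 held for 48 genes (0.316%). Ranked by number of such regions and then by summed peak width, the first 8 in plasma cells 1 included Col5a1 with 2 regions, and Hba-a1, Ndufa4, Tlcd5, Jsrp1, Lepr and Agtr1a with 1 each. Alas2 ranked 27, Gata1 55 and Hbb-bt 57. In plasma cells 2 the first 4 were Pde1a with 5 regions, Bace1 with 3, and Pdpn and Abca9 with 1 each. No gene of the 4 is in an erythroid list.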

How the data were processed

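ATAC-seq libraries, 2 from each of 3 sorted populations, were compared. Bowtie2 2.3.3, HOMER 4.10, bedtools and the build mm10 are named in the submitters' processing notes; for the order of steps, the peak-calling settings and what was intersected, the sources used here give nothing. The deposited lists give the chromosome, start and end of each peak and a score of 1000 in every row, so the deposited score carries no signal and depth is unknown.

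Peaks were merged, assigned and counted with Python 3.11.15, pandas 2.3.3 and numpy 2.4.6, and figures were drawn with matplotlib 3.10.9. Genes were the protein-coding intervals of RefSeq (GRCm38.p6). A region over several genes went to the gene it overlapped most, then to the nearest gene end, then by symbol. A list called a region where at least 1 of its peaks overlapped it. The steps were tested on simulated lists. Promoter windows came from RefSeq (Biopython 1.88 for the alignment).

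The 8 genes, the 5 erythroid lists and the 10 other lists were chosen with earlier results of these data known. Genes named are the 8, every erythroid-list gene with a region called in 1 plasma cell list and no other list, the genes most like Hba-a1, Hbb-bt, Gata1 and Alas2 (up to 8 for plasma cells 1 and 4 for plasma cells 2), up to 3 genes of each other list, and neighbours within 100 kb. Some genes that this rule selects are not reported here by name, though the counts include them. Epor, Hbb-bs and Klf1 were picked for description after their calls were seen, as were the widths of regions shared by both plasma cell lists and the erythroid regions called in both plasma cell lists alone. Alternatives were a 50% cover for a call, shorter lists of the widest peaks, merging across 500 bp, a 10 kb limit, genes of any type, leaving out each library, and counting a region for every gene it overlaps.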

Additional observations from a re-analysis of the deposited data

How the results depend on the processing

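No paired analysis was possible because the counts come from no test. Of 126 values recomputed for 11 counts and shares, 92 stayed within 1.5 times the reported count, or within the 95% binomial interval (Wilson) of a reported share, and 34 did not. Cutting each list to its 34070 widest peaks gave 5 member regions in plasma cells 1 and no other list, 2 in plasma cells 2 alone of the plasma cell lists and 3 in both plasma cell lists and neither pc-BMAC list, and 7.57% of all regions in plasma cells 2 alone. Cutting to the 17035 widest gave 1 member region in plasma cells 1 alone, 0 in plasma cells 2 alone, 1 in plasma cells 1 and no other list, 2 in both plasma cell lists and neither pc-BMAC list and 1 in both and neither immature B cell list. For the other erythroid genes it gave 13 and 15 in plasma cells 1 and 2 alone and 3 in plasma cells 1 and no other list, and for all regions 6% in plasma cells 1 alone. A cover of 50% gave 2 member regions in plasma cells 2 alone, and 8.52% and 7.29% of all regions in plasma cells 1 and 2 alone. Genes of any type gave 3 member regions in both plasma cell lists and neither pc-BMAC list, 17 other erythroid regions in plasma cells 2 alone and 1 in plasma cells 2 and no other list. The 10 kb limit gave 16 and 1 for the last pair, and 5.81% of all regions in plasma cells 2 alone. Merging across 500 bp gave 7.34% in plasma cells 1 alone. Leaving out each library in turn gave 1 to 2 member regions in plasma cells 2 alone (2 without immature B cells 1). In plasma cells 1 and no other list it gave 9 to 12. With both plasma cell lists kept, 5 to 7 were in both and neither pc-BMAC list, and 7 to 8 in both and neither immature B cell list. Without plasma cells 2 the last pair became 15 and 17, but those counts required a call in plasma cells 1 only. For the other erythroid genes, leaving out each library gave 72 to 73 regions in plasma cells 1 alone and 27 to 30 in plasma cells 2 alone. In plasma cells 1 and no other list there were 41 to 54. In plasma cells 2 and no other list there were 4 to 18 (18 without plasma cells 1, 9 without immature B cells 1). Shares of all regions were 7.64% to 8.41% and 6.2% to 6.85%. Plasma cells 1 against plasma cells 2 has no value without either. Depth is unknown, so missing calls cannot be weighed.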

Other observations

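Outside the protein-coding genes, the microRNA genes Mir144 (chr11:78073005-78073070) and Mir451a (chr11:78073170-78073241), neighbours that are highly expressed in red cell precursors, were looked up after the calls above had been seen. A 726 bp region (chr11:78073661-78074386) that begins 420 bp from Mir451a was called in plasma cells 1 and no other list. The nearest-gene rule had given it to Eral1, which it overlaps, so it is not among the regions counted for the 8 genes or the erythroid lists. Of the other 4 regions within 10 kb, the one at chr11:78065960-78066235 was 276 bp in plasma cells 1 and 150 bp in plasma cells 2, with no other list. The one at chr11:78069656-78070016 was 361 bp in plasma cells 1, 190 bp in plasma cells 2 and 196 bp in pc-BMACs 2. The one at chr11:78070821-78071016 was 196 and 150 bp in pc-BMACs 1 and 2, with no other list, and the last was called in all 6 lists. The mature microRNAs are given from RefSeq, with the seed (bases 2 to 8) in capitals, to identify the genes next to the region.
mmu-miR-451a: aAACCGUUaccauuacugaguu
mmu-miR-144-3p: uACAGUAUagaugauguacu
mmu-miR-144-5p: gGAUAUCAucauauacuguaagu
The 3 seeds differ from each other. Since this locus was picked after the calls were seen, its regions are a description and do not count as further cases. They hold a 726 bp peak of plasma cells 1 alone, which overlaps Eral1 and lies beside Mir451a. They also hold regions that plasma cells 2 or the pc-BMAC lists called.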
